A study of Mus musculus with 16 samples.

Results

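RNase footprints were examined on 10 mitochondrial tRNAs that are read from the heavy-strand transcript and lie before or between its mRNAs, namely *mt-Ti*, *mt-Tm*, *mt-Tw*, *mt-Td*, *mt-Tk*, *mt-Tg*, *mt-Tr*, *mt-Th*, *mt-Ts2* and *mt-Tl2*. The tRNAs were chosen by their place in the mouse mitochondrial genome (mm10), and a plus-strand footprint was counted for one of them when its largest overlap with a gene on its own strand, of at least 1 nt, was with that tRNA. By this rule 8 of 302 footprints were found, 5 of the 178 called in control mice and 3 of the 124 called in *Lrpprc* knockout mice. The 10 genes, each a single exon, are 59 to 71 nt long and together span 672 nt of the 16299 nt genome.

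Mitochondria were isolated from hearts of 12-week-old male C57BL/6N mice, either control (*Lrpprc* loxP/loxP) or knockout (*Lrpprc* loxP/loxP,Cre+). Both groups carry the floxed alleles, and the knockout is specific to heart and skeletal muscle. For each genotype 3 mitochondrial lysates were digested, with RNase A, RNase T1 or RNase If, and 1 was mock digested. The deposited footprints rest on 1 combined track per genotype, so no spread between mice can be given and no difference between genotypes was tested. The labels also list *Slirp* +/+ and *Slirp* -/- mice, which were not analysed here.

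LRPPRC is an RNA-binding protein that forms a complex with SLIRP in mitochondria and is needed there for the stability and polyadenylation of most mRNAs. The mitochondrial genome is transcribed as long precursors in which tRNAs punctuate the mRNAs and rRNAs. RNase P cuts such precursors at the 5′ end of a tRNA and the RNase Z enzyme ELAC2 cuts at its 3′ end, so that where a tRNA abuts an mRNA these cuts also release the mRNA. A tRNA is folded into an acceptor stem, which joins its ends and carries the amino acid, and arms that include the anticodon arm, where the codon is read.

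Each footprint has a central C score, the log10 ratio of RNase-digested over mock-digested 5′ read coverage within it, for which the highest of the 3 RNases is taken at each base. A constant is added to both coverages, which draws the score towards no difference where both are low. To obtain an F score, the ratio in the centre is divided by the same ratio in the left flank and in the right flank, each 3 nt long, and both quotients are added. A low F score means that the centre was cut less than its flanks, and the F score divided by 2 is the mean ratio of centre to flank. Control-called footprints had a lower F score in control than in knockout mice, and knockout-called footprints the reverse. These directions, and low F scores as such, were conditions of calling and are not findings.

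The sequences of the 8 footprints are given within their tRNAs, so that their place relative to the anticodon and to the tRNA ends can be followed. Each sequence is the plus strand of the RefSeq mitochondrial genome of GRCm38 (mm10), 5′ to 3′ with T for U, and capitals mark the footprint.
*mt-Td*, control-called, chrM:6942-7011: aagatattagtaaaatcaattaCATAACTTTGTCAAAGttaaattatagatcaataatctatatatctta
*mt-Tr*, control-called, chrM:9808-9875: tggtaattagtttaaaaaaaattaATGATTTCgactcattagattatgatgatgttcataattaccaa
*mt-Tl2*, control-called, chrM:11671-11741: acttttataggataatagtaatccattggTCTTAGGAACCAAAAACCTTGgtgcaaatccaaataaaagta
*mt-Ts2*, control-called, chrM:11613-11671: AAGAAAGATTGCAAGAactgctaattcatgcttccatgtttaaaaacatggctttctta
*mt-Ti*, control-called, chrM:3706-3807: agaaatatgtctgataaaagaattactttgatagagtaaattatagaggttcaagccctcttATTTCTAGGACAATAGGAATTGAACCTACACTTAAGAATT
*mt-Ti*, knockout-called, chrM:3706-3774: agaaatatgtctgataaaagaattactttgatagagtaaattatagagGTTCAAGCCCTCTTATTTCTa
*mt-Td*, knockout-called, chrM:6942-7011: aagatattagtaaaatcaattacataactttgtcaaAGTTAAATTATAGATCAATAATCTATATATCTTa
*mt-Tk*, knockout-called, chrM:7700-7764: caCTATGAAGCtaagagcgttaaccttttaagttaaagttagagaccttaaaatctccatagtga

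Footprints lay on 6 of the 10 tRNAs, and *mt-Tm*, *mt-Tw*, *mt-Tg* and *mt-Th* carried none of either list. Control-called footprints lay on 5 tRNAs (*mt-Ti*, *mt-Td*, *mt-Tr*, *mt-Ts2* and *mt-Tl2*), against 13 of all 22 mitochondrial tRNAs (59.1%) and 28 of all 37 mitochondrial genes (75.7%). Knockout-called footprints lay on 3 tRNAs (*mt-Ti*, *mt-Td* and *mt-Tk*), against 10 of the 22 tRNAs (45.5%) and 23 of the 37 genes (62.2%). None of the 10 tRNAs had more than 1 footprint of a list, and *mt-Ti* and *mt-Td* had 1 of each. The mRNAs and rRNAs in the larger background are much longer than a tRNA, so that the share of all tRNAs is the closer comparison.

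**Figure D1:**
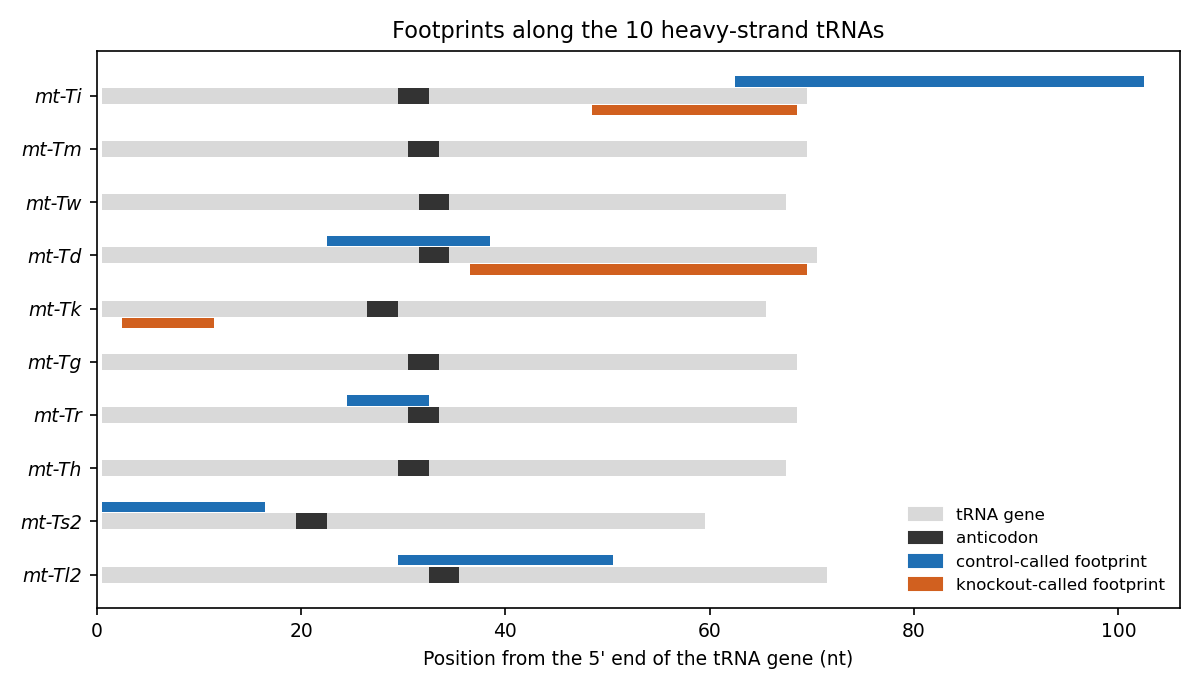
Footprints drawn along each of the 10 tRNAs, with the distance from the 5′ end of the tRNA gene (nt) on the horizontal axis. Grey bars are the tRNA genes, black boxes the anticodons, blue bars (above) control-called and orange bars (below) knockout-called footprints; 3 of the 5 blue bars and none of the 3 orange bars reach an anticodon.

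The control-called footprints were 2.81% of their list (95% Wilson interval 1.21 to 6.41) and the knockout-called ones 2.42% (0.826 to 6.87). These intervals, and those of densities below, cover the counting of footprints only. Per length, the 10 tRNAs held 7.44 control-called footprints per kb (exact Poisson 95% interval 2.42 to 17.4) and 4.46 knockout-called ones (0.921 to 13.0). The 8 tRNAs of the light strand held 7.29 control-called (1.99 to 18.7) and 12.8 knockout-called footprints per kb (5.13 to 26.3). The other heavy-strand tRNAs, *mt-Tf*, *mt-Tv*, *mt-Tl1* and *mt-Tt*, held 21.5 control-called (7.89 to 46.8) and 7.17 knockout-called (0.868 to 25.9) per kb. The mRNAs stood at 9.43 (7.72 to 11.4) and 5.73 (4.42 to 7.30), and the rRNAs at 12.2 (8.30 to 17.3) and 8.67 (5.43 to 13.1). All of these intervals overlap those of the 10 tRNAs, which is not itself a test, and no difference in density was tested.

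**Figure D2:**
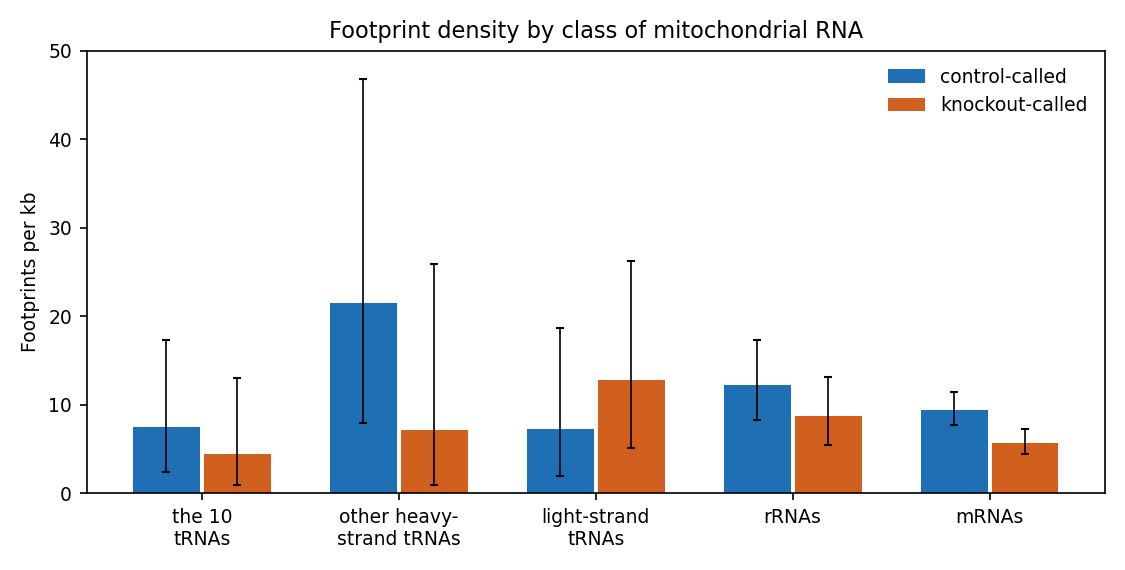
Footprints per kb of gene length (vertical axis) on the 10 tRNAs, the 4 other heavy-strand tRNAs, the 8 light-strand tRNAs, the 2 rRNAs and the 13 mRNAs. Blue bars are control-called and orange bars knockout-called footprints with exact Poisson 95% intervals as error bars; the bars of the 10 tRNAs stand at 7.44 and 4.46 per kb.

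Counted by nucleotide, control-called footprints covered 68 nt (10.1%) of the 10 tRNAs and knockout-called ones 62 nt (9.23%), and footprints of either list 122 nt (18.2%). The other heavy-strand tRNAs had the highest control-called share of the classes, 30.1%, with 10.8% knockout-called. The shares were 23.2% and 10.1% on rRNAs, 16.2% and 12.3% on mRNAs, and 12.4% and 19.3% on the light-strand tRNAs. Among single genes of the genome, the pair of densities nearest to that of the 10 tRNAs together was that of *mt-Cytb*, which encodes cytochrome b, with 8.74 control-called and 4.37 knockout-called footprints per kb, at a Euclidean distance of 1.30 per kb over these 2 densities. Next came *mt-Nd4* (6.53 and 5.81) and *mt-Nd2* (5.78 and 4.82), which encode subunits of complex I. On a single tRNA either density was 0 or at least 14.1 per kb, so that only longer genes could come near the pooled values.

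The control-called footprints covered anticodon nucleotides in 3 of 5 cases. On *mt-Td*, the tRNA for aspartate (anticodon GTC), the footprint was 16 nt long and ran from nt 23 to 38 of the tRNA (6964 to 6979), over the whole anticodon loop and all 3 anticodon nucleotides. Its C score of 0.0397 can stand for digested coverage like that of the mock track or for low coverage in both. Its F score was 0.997. The F score ranked 147 from the lowest of 178, so that the contrast between its centre and flanks was among the smaller ones of the list.

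On *mt-Tr*, the tRNA for arginine (anticodon TCG), the footprint was 8 nt long, the shortest length searched. It ran from nt 25 to 32 (9832 to 9839), with 4 nt in the 5′ strand of the anticodon stem and 4 nt in the loop, and covered 2 of the 3 anticodon nucleotides. Its C score of -0.379 was the lowest of the 5 control-called footprints, and its F score was 0.994 (rank 145). Thus coverage in the digests was below that of the mock track (0.417 times, with the constant added to both).

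On *mt-Tl2*, a tRNA for leucine (anticodon TAG), a footprint of 21 nt ran from nt 30 to 50 (11700 to 11720). It covered all 3 anticodon nucleotides, the whole loop and the 3′ strand of the stem, and reached 8 nt beyond that stem. RefSeq gives no anticodon position for *mt-Tl2*, which was placed by the stem and loop alone. Its C score was -0.145 and its F score was 1.20 (rank 169), the highest of the 8 footprints.

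The other control-called footprints lay at tRNA ends. On *mt-Ts2*, a tRNA for serine (anticodon GCT) that is the shortest of the 10, a footprint of 16 nt started on the first nucleotide (11613 to 11628). *mt-Th* ends directly before it, with 0 nt between the genes, so that the whole 5′ flank of 3 nt lay in *mt-Th*. Its C score was -0.152 and its F score was 0.762 (rank 67). No nucleotide of *mt-Th* was itself in a footprint.

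On *mt-Ti*, the tRNA for isoleucine, the control-called footprint (3768 to 3807) was the one among the 8 that crossed a tRNA end. At 40 nt it had the greatest length searched, and 7 nt (17.5%) lay in the 3′ strand of the acceptor stem and the last base, while 33 nt lay beyond the 3′ end. No gene is annotated on the plus strand in the 70 nt between *mt-Ti* and *mt-Tm*, and 36 nt of the footprint were opposite *mt-Tq*, the tRNA for glutamine on the other strand. It had the lowest F score (0.557, rank 17 of 178) and the highest C score (0.135) of the 5. Most of it is thus a footprint of the spacer and not of the tRNA.

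The 3 knockout-called footprints covered no anticodon nucleotide, and each touched a strand of the acceptor stem and had a flank that passed the tRNA end by 1 or 2 nt. On *mt-Ti* the footprint was 20 nt long (3754 to 3773, nt 49 to 68), with 7 nt in the 3′ acceptor strand and 13 nt between it and the anticodon stem, and ended 1 nt before the 3′ end. Its C score was 0.0853 and its F score was 0.842 (rank 14 of 124). It covered 29.0% of the tRNA.

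On *mt-Td* the footprint was 33 nt long (6978 to 7010, nt 37 to 69) and also ended 1 nt before the 3′ end. It covered 47.1% of the tRNA, the largest share of any of the 8. Its C score was 0.0150 and its F score was 0.641 (rank 7 of 124), a mean ratio of centre to flank of 0.320.

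On *mt-Tk*, the tRNA for lysine (anticodon TTT), a footprint of 9 nt ran from nt 3 to 11 (7702 to 7710), with 5 nt in the 5′ acceptor strand. It had the lowest C score of the 8, -0.535 (rank 4 of 124), a digested coverage 0.292 times that of the mock track with the constant added to both. Its F score of 0.535 (rank 5 of 124) was also the lowest of the 8. This was the one tRNA of the 10 with a knockout-called and no control-called footprint.

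On the 10 tRNAs, 2 of the 5 control-called footprints, those of *mt-Ts2* and *mt-Ti*, also touched an acceptor strand, with 7 nt each, so that place did not divide the lists. On the other 12 tRNAs, 4 of 10 control-called and 5 of 9 knockout-called footprints covered anticodon nucleotides, and 3 of 10 and 1 of 9 touched an acceptor strand. Most of the knockout-called footprints there thus lay away from the acceptor stem. The exception was on *mt-Tp*, the light-strand tRNA for proline, where a control-called footprint (15375 to 15394) covered all 3 anticodon nucleotides and a knockout-called one (15357 to 15376) had 7 nt in an acceptor strand, as on *mt-Td*. A second knockout-called footprint of *mt-Tp* (15380 to 15390) covered 1 anticodon nucleotide.

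On *mt-Ti* and *mt-Td*, those of the 10 tRNAs with both lists, the footprints overlapped but did not coincide. On *mt-Ti* they shared 6 nt (3768 to 3773) and on *mt-Td* 2 nt (6978 to 6979), in the 3′ strand of the anticodon stem. In both tRNAs the shared bases were at an end of each footprint, and 0 footprints had the same start and end in both lists. On *mt-Td* the control-called footprint was the more 5′ of the pair and on *mt-Ti* the more 3′.

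On the 10 tRNAs the control-called F scores (0.557, 0.762, 0.994, 0.997 and 1.20, median 0.994) lay within the range of the other 173 footprints of the list, whose lowest, median and highest were 0.389, 0.825 and 1.33. The knockout-called F scores (0.535, 0.641 and 0.842) lay in the lower end of the range of the other 121, at 0.252, 1.28 and 1.88. Of those 121, 11 (9.09%) had an F score at or below 0.842, the highest of the 3, and 2 of the 11 were on mRNAs. The 9 knockout-called footprints on the other 12 tRNAs also had low F scores, with a median of 0.596 (0.252 to 1.12). Thus low F scores in the knockout list were shared with other tRNAs.

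**Figure D3:**
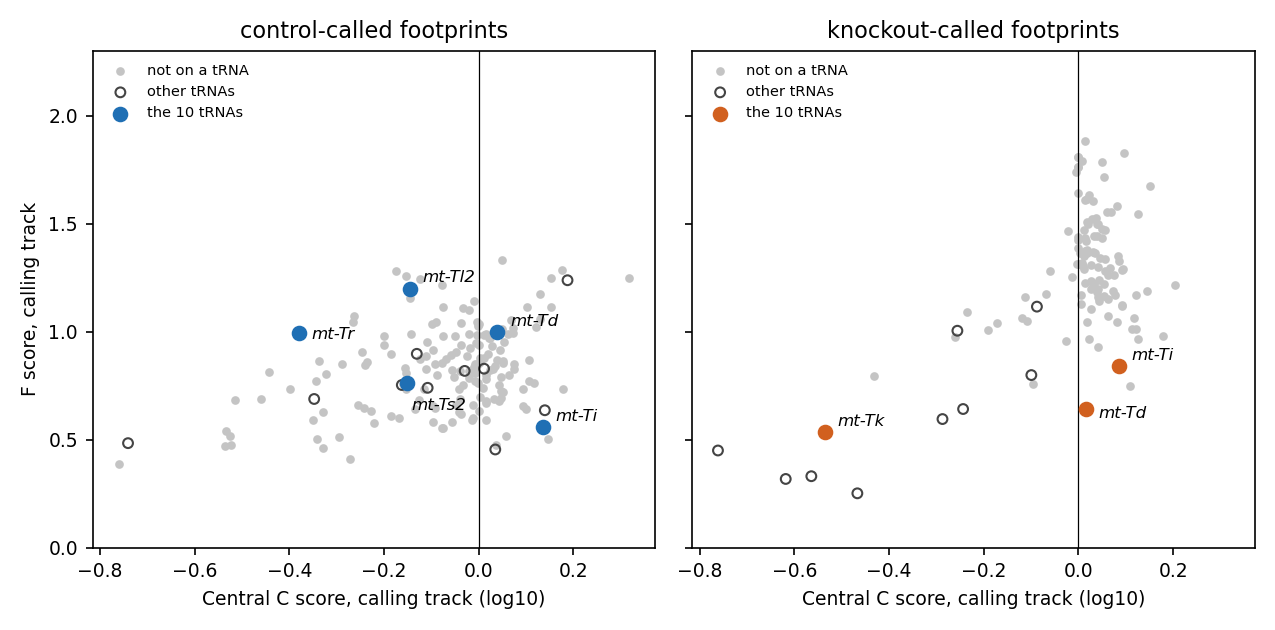
Central C score (log10, horizontal axis) against F score (vertical axis) of every footprint in the track that called it, control-called on the left and knockout-called on the right. Filled coloured points are the footprints on the 10 tRNAs, open circles those on other tRNAs and grey points all others; the 3 orange points have F scores of 0.535 to 0.842, below most grey points of that list.

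C scores below 0, where digested coverage was under that of the mock track, were found for 3 of the 5 control-called footprints and for 1 of the 3 knockout-called ones. In the rest of the lists the shares were 61.8% (107 of 173) and 23.1% (28 of 121). Among control-called footprints, C scores were below 0 for 2 of 6 on the other heavy-strand tRNAs and 4 of 4 on the light-strand tRNAs. Among knockout-called footprints these counts were 2 of 2 and 7 of 7, so there the 10 tRNAs differed from the other tRNAs in count, which was not tested. The lengths ranged from 8 to 40 nt (median 16 nt) and from 9 to 33 nt (median 20 nt), against medians of 15 and 14 nt in the rest of the lists.

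The base composition of the control-called nucleotides was close to that of the tRNA nucleotides outside both lists. Pyrimidines, after which RNase A cuts, were 45.6% of the 68 control-called nt and 46.4% of the 550 nt outside. They were 58.1% of the 62 knockout-called nt. Guanines, after which RNase T1 cuts, were 14.7%, 15.1% and 9.68%. The knockout-called values rest on 3 stretches of sequence, and the part of base composition in the calls was not tested.

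No footprint crossed a junction between one of the 10 tRNAs and an mRNA. Of the 10 tRNAs, *mt-Tm*, *mt-Tg* and *mt-Tl2* abut the next mRNA (*mt-Nd2*, *mt-Nd3* and *mt-Nd5*) with 0 nt between, and *mt-Td*, *mt-Tk* and *mt-Tr* lie 1 nt before *mt-Co2*, *mt-Atp8* and *mt-Nd4l*. *mt-Tw* lies 311 nt before *mt-Co1*. *mt-Ti*, *mt-Th* and *mt-Ts2* are followed by another of the 10 tRNAs. Over the whole genome, footprints that cross the end of a gene on their own strand were also few, 2 of 178 (1.12%) control-called and 1 of 124 (0.806%) knockout-called. No minus-strand footprint lay opposite the 10 tRNAs.

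Within 50 nt outside the tRNA ends, footprints of the mRNAs lay near 5 of 20 ends. Not all 20 ends could have one, since some face another tRNA or a spacer longer than 50 nt. No such count over other gene ends is given. *mt-Td* had the nearest, a knockout-called footprint in *mt-Co2* (7029 to 7053, F score 1.39) that began 17 nt past the 3′ end. On *mt-Td* and the start of *mt-Co2* there were thus 2 knockout-called footprints in a row, while the nearest control-called one in *mt-Co2* was 170 nt away. A knockout-called footprint in *mt-Nd1* (3649 to 3673, F score 1.63) ended 32 nt before *mt-Ti*, and one in *mt-Nd2* (3958 to 3988, F score 1.05) began 44 nt past *mt-Tm*. Control-called footprints lay 28 nt before *mt-Tk* in *mt-Co2* (7658 to 7671, F score 1.16) and 47 nt past *mt-Tg* in *mt-Nd3* (9506 to 9515, F score 0.736).

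**Figure D4:**
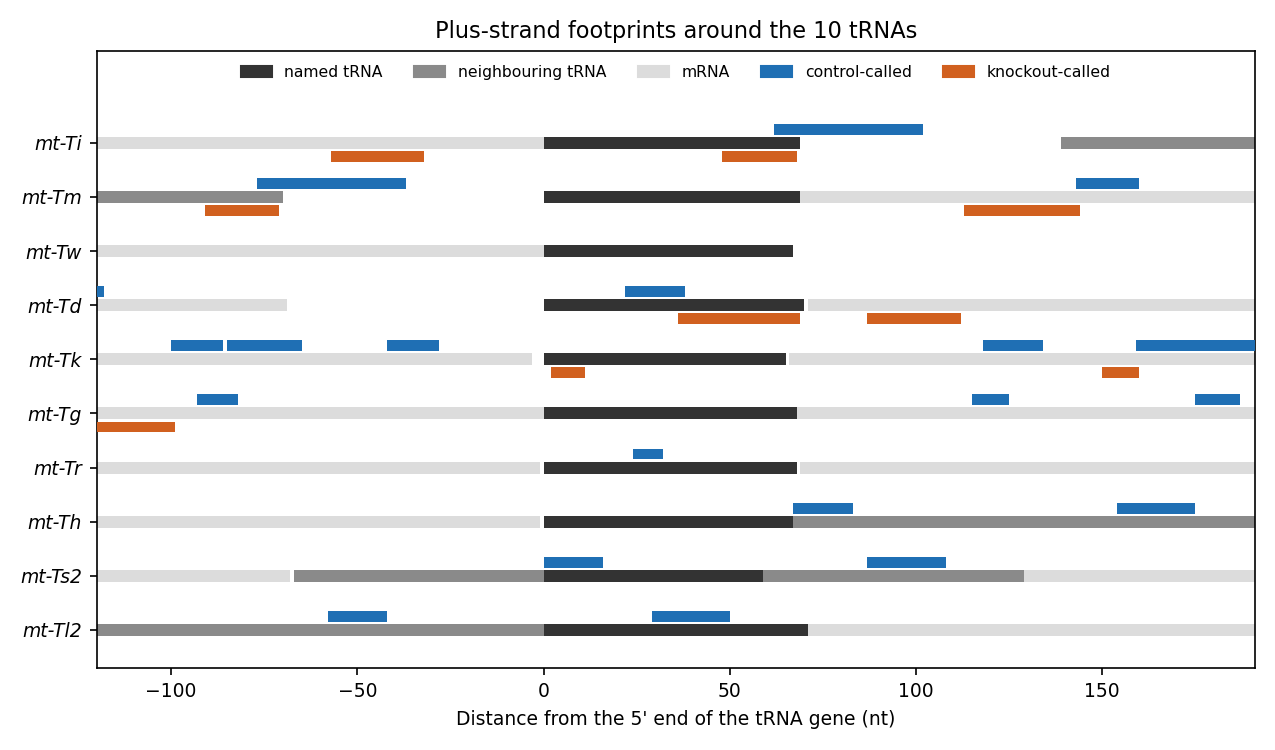
Plus-strand footprints around each of the 10 tRNAs, with the distance from the 5′ end of the tRNA gene (nt) on the horizontal axis. Black bars are the named tRNA, dark grey bars neighbouring tRNAs, light grey bars mRNAs, blue bars control-called and orange bars knockout-called footprints; the control-called footprint of *mt-Ti* alone passes the end of its tRNA.

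Of the tRNAs without footprints, *mt-Tm* reads methionine, *mt-Tw* tryptophan, *mt-Tg* glycine and *mt-Th* histidine. *mt-Tw* was the most isolated of the 4, with the nearest control-called footprint 249 nt before it in *mt-Nd2* and the nearest knockout-called one 253 nt past it, outside any plus-strand gene. *mt-Th* had the footprint of *mt-Ts2* directly at its 3′ end, and its nearest footprints on the 5′ side lay in *mt-Nd4*, 131 nt (control-called) and 139 nt (knockout-called) away. The depth of the libraries over these tRNAs is unknown, so that the absence of a footprint gives no level of RNase accessibility for them.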

How the data were processed

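RNase footprinting data of heart mitochondria from control and *Lrpprc* knockout mice were used. The authors pooled technical replicates, removed adapters with cutadapt (version 1.10) and used Bowtie2 and the mm10 build for alignment. Coverage was counted at 5′ read ends, per strand, and scaled by library size. It excludes fragments outside 15 to 35 nt and sequences that matched Illumina contaminants or tRNAs of the nuclear genome, and includes reads recovered from nuclear inserts of mitochondrial DNA. Footprints of 8 to 40 nt were then called at a false discovery rate of 5% with shuffled C scores as the null.

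The authors' deposited lists give for each footprint its position and length, and both scores in the calling track. They also give the authors' log2 fold change of the F score between genotypes, which was not used. The files hold no read counts, so depth is unknown. Removal of nuclear tRNA reads and the fragment length limits could lower the coverage of mitochondrial tRNAs, which was not tested.

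Genes came from GENCODE vM21, whose coordinates match the build. The anticodon was placed by its letters within a 7 nt loop between stem strands of 5 nt each. Not every stem was fully paired, with 3 of 5 pairs in *mt-Tw* and 4 of 5 in *mt-Ts2*. Among the 10 tRNAs, the placement gave the RefSeq position for 9 of 9 that have one there. It was applied in the same way to the other 12 tRNAs, a step added after their values were seen. Those of the 12 with footprints had at least 4 of 5 pairs. The acceptor stem was taken as the first 7 and the last 8 nt. So defined, it had at least 6 of 7 pairs in 9 of the 10 tRNAs and 1 of 7 in *mt-Th*. Counts, Wilson and exact Poisson intervals were computed in Python 3.11.15 with SciPy 1.17.1. The assignment of footprints was tested on simulated data. The alternatives were another overlap, midpoints, no strand, footprints of at least 10 nt and merging. All 10 tRNAs and all their footprints are named, with the neighbouring gene where a footprint crosses an end and the 3 genes nearest in density. The members and lists were chosen with earlier results of these data known.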

Additional observations from a re-analysis of the deposited data

How the results depend on the processing

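Over 12 results, 28 alternative values were computed, of which 18 were equal to the reported value. With footprints of at least 10 nt the median F score became 0.879 for the control-called and 0.741 for the knockout-called footprints, because those of *mt-Tr* (8 nt) and *mt-Tk* (9 nt) drop out, which leaves 4 and 2 footprints, on 4 and 2 tRNAs. The control-called footprint of *mt-Ti* is lost when at least 50% must lie inside, when strand is ignored or when footprints are assigned by midpoint, and 4 control-called footprints then remain (5.95 per kb). Leaving out a replicate was not possible, since each genotype has 1 track. No paired analysis was possible because the deposited lists combine the libraries of a genotype. The wide intervals reflect 5 and 3 footprints, and read depth, spread between mice and the signal over each tRNA are not known from these lists.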

Other observations

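Both lists were found on 7 of the 22 mitochondrial tRNAs, *mt-Ti*, *mt-Td* and 5 of the other 12. Over those 5 tRNAs there were 6 pairs of a control-called and a knockout-called footprint, of which 4 shared nucleotides. On *mt-Te*, the light-strand tRNA for glutamate, the control-called footprint (14093 to 14102, F score 0.484) lay wholly inside the knockout-called one (14082 to 14102, F score 0.319). On *mt-Tt*, the tRNA for threonine, the footprints shared 5 nt (15317 to 15321), and on *mt-Tp*, the tRNA for proline, the pairs shared 2 and 11 nt. On *mt-Tf*, the tRNA for phenylalanine, the footprints lay 5 nt apart with F scores of 1.24 (control-called) and 0.252 (knockout-called), the latter the lowest of the knockout-called list. On *mt-Tc*, the tRNA for cysteine, they lay 7 nt apart.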
